A study of Mus musculus with 24 samples.

Results

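The constitutive proteasome genes were followed in the quadriceps muscle of mice that lack exon 44 of Dmd, the dystrophin gene. Members were all genes of the 2 count tables whose symbol is Psma, Psmb, Psmc or Psmd followed by a number, except the immunoproteasome genes Psmb8, Psmb9 and Psmb10. That rule gave 36 of 24062 gene rows, of which 16 encode parts of the 20S core (Psma, Psmb) and 20 carry 19S symbols (Psmc, Psmd). RNA sequencing of polyadenylated RNA covered 24 libraries in 9 groups, all on a C57BL/6 background. Wild-type mice (WT), mice with the exon 44 deletion (delEx44, a model of Duchenne muscular dystrophy) and corrected delEx44 mice were compared. Each genotype had 3 sedentary libraries at 4 weeks, 2 libraries at 8 weeks after 1 month of downhill running (15 degrees of decline, 12 m/min, every other day) and 3 sedentary libraries at 18 months. Corrected mice carry the same deletion and received, by intraperitoneal injection at postnatal day 4, a pair of AAV9 vectors, one encoding the guide RNA and the other SpCas9. The young corrected mice received 8e13 vector genomes per kg of each vector, with a self-complementary guide vector, and those kept to 18 months received 2.5e14 of a single-stranded guide vector and 5e13 of the Cas9 vector. No sedentary 8-week group is among the groups, so running cannot be told apart from age. No vector-only group is among them either, so editing cannot be told apart from the vectors. Doses and guide vector differ between the young and the 18-month corrected mice. In corrected muscle, age therefore cannot be told apart from dose and vector.

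The proteasome is the main protease for ubiquitin-tagged proteins in the cytosol and nucleus. Its 20S core is a barrel of outer alpha rings (Psma genes) and inner beta rings (Psmb genes), in which Psmb5, Psmb6 and Psmb7 carry the active sites. The 19S cap holds a ring of ATPases (Psmc genes) that unfold the substrate, and non-ATPase subunits (Psmd genes) that form the base and lid, bind ubiquitin and remove it. Psmd5, Psmd9 and Psmd10 carry Psmd symbols but encode chaperones that help to assemble the cap. In muscle the ubiquitin-proteasome system is known for the breakdown of myofibrillar proteins during wasting.

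Promoter sequence was available for 29 of the 36 members (31 RefSeq starts, GRCm38.p6), and 5 stretches are shown because these genes recur in the results. Each is the 150 bases just before the outer of the RefSeq and GENCODE starts, 5′ to 3′ on the gene's strand. Capitals mark matches, on either strand, to 3 motifs: an antioxidant response element (TGACNNNGC), a CCAAT box (CCAAT) and a GC box (GGGCGG). The stretch before Psmb5, an active-site gene, lies at chr14:54618023-54618172 on the minus strand and that before Psmd10 at chrX:140956729-140956878 (minus). The stretch before Psma3 lies at chr12:70974471-70974620 (plus), that before Psmb4 at chr3:94886962-94887111 (minus) and that before Psmd6 at chr14:14120985-14121134 (minus).
Psmb5: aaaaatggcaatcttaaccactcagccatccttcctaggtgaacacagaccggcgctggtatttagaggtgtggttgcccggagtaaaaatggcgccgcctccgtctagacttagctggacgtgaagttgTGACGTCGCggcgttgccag
Psmd10: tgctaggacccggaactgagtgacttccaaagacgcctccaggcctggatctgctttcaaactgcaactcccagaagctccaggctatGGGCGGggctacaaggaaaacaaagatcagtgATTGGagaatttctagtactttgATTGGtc
Psma3: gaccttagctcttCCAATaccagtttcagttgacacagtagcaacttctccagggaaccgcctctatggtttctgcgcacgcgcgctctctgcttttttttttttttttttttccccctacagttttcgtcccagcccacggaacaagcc
Psmb4: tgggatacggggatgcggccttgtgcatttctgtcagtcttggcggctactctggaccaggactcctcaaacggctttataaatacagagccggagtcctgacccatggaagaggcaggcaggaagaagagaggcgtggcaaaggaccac
Psmd6: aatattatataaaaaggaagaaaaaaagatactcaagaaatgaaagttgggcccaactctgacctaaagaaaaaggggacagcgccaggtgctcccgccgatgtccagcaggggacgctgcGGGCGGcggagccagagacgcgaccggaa
The Psmb5 stretch held 1 antioxidant response element, that of Psmd10 held 2 CCAAT boxes and 1 GC box, that of Psma3 held 1 CCAAT box, that of Psmd6 held 1 GC box and that of Psmb4 held none of the 3. Over 250 bases before the start, a GC box was found in 66.7% of 18 19S promoters and 38.5% of 13 20S promoters, against 32.7% of all 32851 RefSeq promoters. A CCAAT box was found in 27.8% of the 19S and 53.8% of the 20S promoters, against 33.8% of all promoters. The antioxidant response element was found in 16.7% of the 19S and 15.4% of the 20S promoters, against 10.2% of all. These are matches of letters and not measured binding.

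Library totals were 30552867 to 38090522 gene counts in the table of 15 young libraries and 23125930 to 31254175 in the separate 18-month table. Dmd counts followed the labels. At 4 weeks Dmd was at 204 to 240 CPM (counts scaled to the library total with TMM factors, which set most genes level between libraries) in WT, 36.1 to 41.8 in delEx44 and 155 to 172 in corrected muscle. These reads count the whole gene, not the deleted exon alone. Markers of other cells moved with genotype. The summed level of 10 mature fibre genes was 191000 to 212000 CPM in WT, 88900 to 113000 in delEx44 and 169000 to 193000 in corrected muscle at 4 weeks, and that of 10 macrophage genes was 291 to 347, 1690 to 2430 and 490 to 681 CPM. None of these 20 genes was at 0 in a whole group. A summed neutrophil level of 238 CPM set WT library 3 at 4 weeks apart, against 0.315 at the lowest in that group. Without that library 13 members were called in delEx44 relative to WT at 4 weeks, against 17 with it. Of all genes 24.3% were then called higher and 24.2% lower, against 25.2% and 25% with it. The 4 haemoglobin genes of the red cell list were at 0 in every library. In delEx44 relative to WT at 4 weeks, 7 of 8 regenerating fibre genes were called higher and 1 lower. The summed level of these 8 genes was nevertheless lower in delEx44, at 3460 to 4080 CPM. It was 6580 to 7770 CPM in WT and 6910 to 8000 in corrected muscle. Of 6 fibro-adipogenic progenitor genes 4 were called higher and 0 lower, and of 6 T and B cell genes 3 higher and 1 lower. No endothelial and no adipocyte gene was called, of 5 each. Of 7 neutrophil genes 5 were called lower, but the groups lay apart for 0 of them. The neutrophil sum was 4.86 to 23.1 CPM in delEx44, within the WT range of 0.315 to 238, whose top value is that of WT library 3.

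Most members were well covered by counts. Of the 36, 34 passed the filter on low counts in both tables (14 20S, 20 19S), and all counts and medians of members below are over those 34. Psma8, the testis form of an alpha subunit, had 2 to 5 counts per library in WT, 10 to 11 in delEx44 and 2 to 5 in corrected muscle at 4 weeks. It had 0 to 4 counts after running and, at 18 months, 0 to 2 in WT, 1 to 9 in delEx44 and 7 to 14 in corrected muscle. It passed the filter in the young table only, so no test of it is given. Psmb11, the beta subunit of the thymus proteasome, had 0 to 2 counts in any library and was not tested.

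Levels per kb of exon (CPM divided by the exon length of the principal transcript) spanned a wide range among the 34 tested members. In WT at 4 weeks the highest levels per kb were those of the active-site genes Psmb6 (228) and Psmb7 (206), followed by the ATPase Psmc3 (154). The lowest were those of the assembly chaperones Psmd5 (6.44), Psmd10 (8.50) and Psmd9 (10.1). Among the tested genes that encode subunits, the lowest was Psma2 (30.6). These 3 chaperone genes were the lowest of the 34 tested members in all 9 groups. The median level per kb was 89.8 over 20S and 79.1 over 19S genes in WT at 4 weeks, and 79.9 and 93.8 in WT at 18 months. The third active-site gene, Psmb5, stood lower than the other two: 43.8 per kb in WT at 4 weeks.

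The first question was whether proteasome transcripts differ in dystrophic muscle at 4 weeks, and they did so in small and mixed steps. With TMM scaling, 13 members fell and 4 rose in delEx44 relative to WT at 4 weeks, whereas scaling to total gene counts gave 0 lower and 32 higher, against 5.67% and 58.5% of all genes with that scaling. Of all 15013 genes tested, 50.2% were called in either direction with TMM, 25% lower and 25.2% higher, so members were called about as often as other genes with that scaling. All delEx44 libraries lay below all WT libraries for 14 members and above them for 3, against 28.7% and 29.9% of all genes. The choice of scaling moved the median of all genes from 0.00 to 0.39 on the log2 scale. A scaling shifts all genes nearly alike, so it cannot change where members stand relative to other genes: their median log2 fold change was -0.10 with TMM (all genes 0.00) and 0.30 with total counts (all genes 0.39). Effects were small, with a median absolute log2 fold change of 0.17 over members and 0.33 over all genes. Whether less RNA per cell or fewer cells of a type underlies any of these differences cannot be told apart in whole muscle. The part of the fibre and macrophage markers, of which 8 of 10 fell and 10 of 10 rose in this comparison, was not tested.

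The 19S genes made up most of the decrease seen with TMM. At 4 weeks 10 of 20 19S genes fell and 2 rose (8 not called), whereas with total counts 19 were higher and 0 lower. Of the 14 20S genes 3 fell and 2 rose (9 not called), and with total counts 13 were higher and 0 lower. The median log2 fold change was -0.17 over 19S and 0.02 over 20S genes, a difference of 0.19, which stayed between 0.17 and 0.21 when any 1 library of either group was left out. With total counts the medians were 0.22 and 0.42, so the sign of the 19S median depends on the scaling. No test of this difference between the classes was made, since members are not independent samples.

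**Figure D1:**
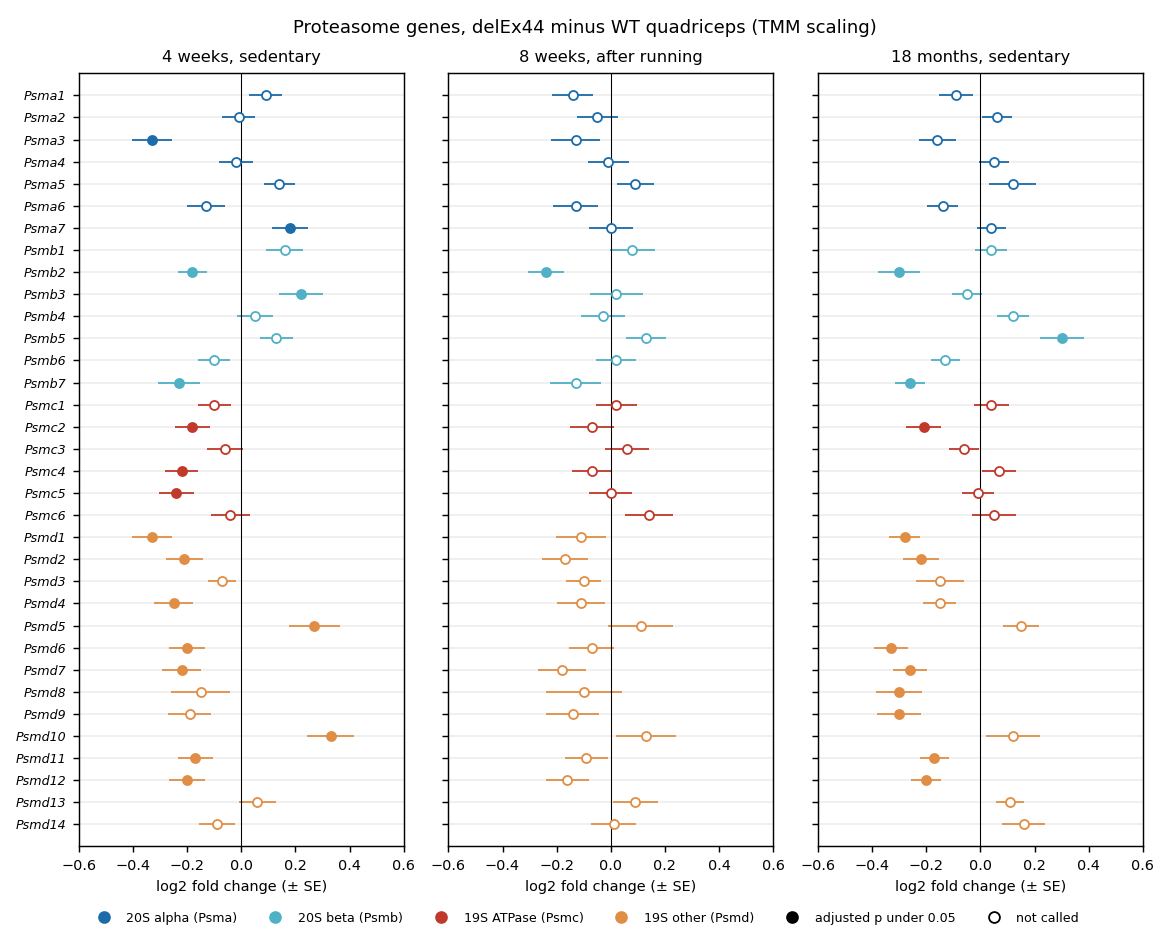
Log2 fold change (delEx44 minus WT, TMM scaling) of the 34 tested members at 4 weeks, 8 weeks after running and 18 months, with standard error bars, coloured by class; filled points passed the adjusted threshold of 0.05. Filled points to the left of 0 are mostly 19S genes at 4 weeks and 18 months, and 1 gene is filled after running.

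**Figure D2:**
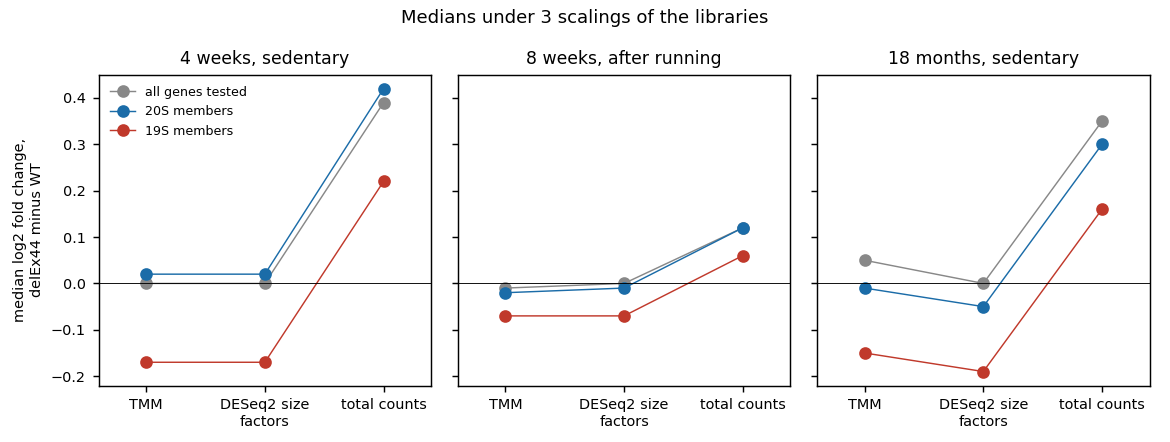
Median log2 fold change (y axis, delEx44 minus WT) over all genes tested, 20S members and 19S members under 3 scalings of the libraries (x axis), for the 3 ages. At 4 weeks the 19S median moves from -0.17 with TMM to 0.22 with total counts, and the median of all genes from 0.00 to 0.39.

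Among the non-ATPase subunits of the cap, 7 of 11 fell and none rose at 4 weeks with TMM, while 10 were higher with total counts. Psmd1, a large scaffold subunit of the base, was at 259, 245 and 231 CPM in the 3 WT libraries, 187, 197 and 201 in delEx44, with 210, 227 and 244 in corrected muscle. All delEx44 libraries lay below both other groups. The log2 fold change was -0.33 ± 0.074 (SE, edgeR quasi-likelihood adjusted p = 0.0024) and became 0.07 with total counts. Psmd4, a ubiquitin receptor, was at 156, 149 and 148 CPM in WT and at 122, 122 and 139 in delEx44, so the groups did not overlap (log2 fold change -0.25 ± 0.073, edgeR adjusted p = 0.013). Psmd11, a lid subunit, was at 96.1, 97.1 and 89.1 CPM in WT and 84.0, 78.5 and 88.3 in delEx44 (log2 fold change -0.17 ± 0.064, edgeR adjusted p = 0.040). The gap between the nearest Psmd11 libraries was under 1 CPM. Psmd2, Psmd6, Psmd7 and Psmd12, a base scaffold and 3 lid subunits, fell by 0.21, 0.20, 0.22 and 0.20 on the log2 scale. Psmd3, Psmd8, Psmd13 and Psmd14, the deubiquitinase of the lid, did not pass the test.

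Among the ATPases 3 of 6 fell at 4 weeks and all 6 estimates were negative with TMM, while all 6 were called higher with total counts. Psmc5 was at 166, 160 and 159 CPM in WT and 131, 136 and 145 in delEx44, with no overlap (log2 fold change -0.24 ± 0.065, edgeR adjusted p = 0.0081). It was 0.16 higher with total counts. Psmc2 and Psmc4 fell by 0.18 and 0.22 on the log2 scale.

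Of the 3 assembly chaperones of the cap 2 rose with TMM, and all 3 were higher with total counts. Psmd10, also known as gankyrin, was at 12.0, 12.6 and 11.9 CPM in WT, 16.3, 14.3 and 15.3 in delEx44, with 14.3, 12.6 and 11.2 in corrected muscle at 4 weeks. All delEx44 libraries lay above all WT libraries (log2 fold change 0.33 ± 0.087, edgeR adjusted p = 0.0061). Psmd5 was at 26.2, 31.9 and 26.8 CPM in WT and 35.4, 30.5 and 36.5 in delEx44, so 1 library of each group overlapped (log2 fold change 0.27 ± 0.095, edgeR adjusted p = 0.029). The Psmd5 call was lost without any 1 of WT libraries 1 and 3 and delEx44 libraries 1 and 3 (edgeR adjusted p = 0.076 to 0.11). The third chaperone, Psmd9, had an estimate of -0.19 and was not called. With total counts the log2 fold changes were 0.73 for Psmd10, 0.67 for Psmd5 and 0.21 for Psmd9.

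Members of the 20S core split with TMM. Psma3, an alpha-ring subunit, was at 131, 143 and 132 CPM in WT and 102, 101 and 121 in delEx44, with no overlap (log2 fold change -0.33 ± 0.074, edgeR adjusted p = 0.0025). With total counts it was 0.07. Psma7, another alpha-ring subunit, was at 84.1, 88.6 and 84.9 CPM in WT and 101, 89.1 and 101 in delEx44. Its log2 fold change was 0.18 ± 0.066 (edgeR adjusted p = 0.039), a call lost without any 1 of WT libraries 1 and 3 and delEx44 libraries 1 and 3 (edgeR adjusted p = 0.087 to 0.11). The 3 active-site genes differed among themselves. Psmb7, the trypsin-like site, was at 240, 256 and 222 CPM in WT and 194, 193 and 226 in delEx44, where delEx44 library 3 lay within the WT range (log2 fold change -0.23 ± 0.077, edgeR adjusted p = 0.025). Psmb5, the chymotrypsin-like site, gave 0.13 ± 0.060 (edgeR adjusted p = 0.085), and Psmb6, the caspase-like site, gave -0.10 ± 0.060 (edgeR adjusted p = 0.20). Of the structural beta subunits Psmb2 fell by 0.18 on the log2 scale and Psmb3 rose by 0.22.

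The number of members called at 4 weeks rested on single libraries. It went from 17 to 5 without delEx44 library 1, where 21% of all genes were called higher and 19% lower. It went to 9 without WT library 1, against 21.4% and 21.5% of all genes. Without any other 1 library it was 12 to 15, against 22.3% to 24.3% and 21.6% to 24.2%. With all libraries these shares were 25.2% and 25%. Psmd10, Psmd1, Psma3 and Psmc5 kept their calls under each of these omissions.

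**Figure D3:**
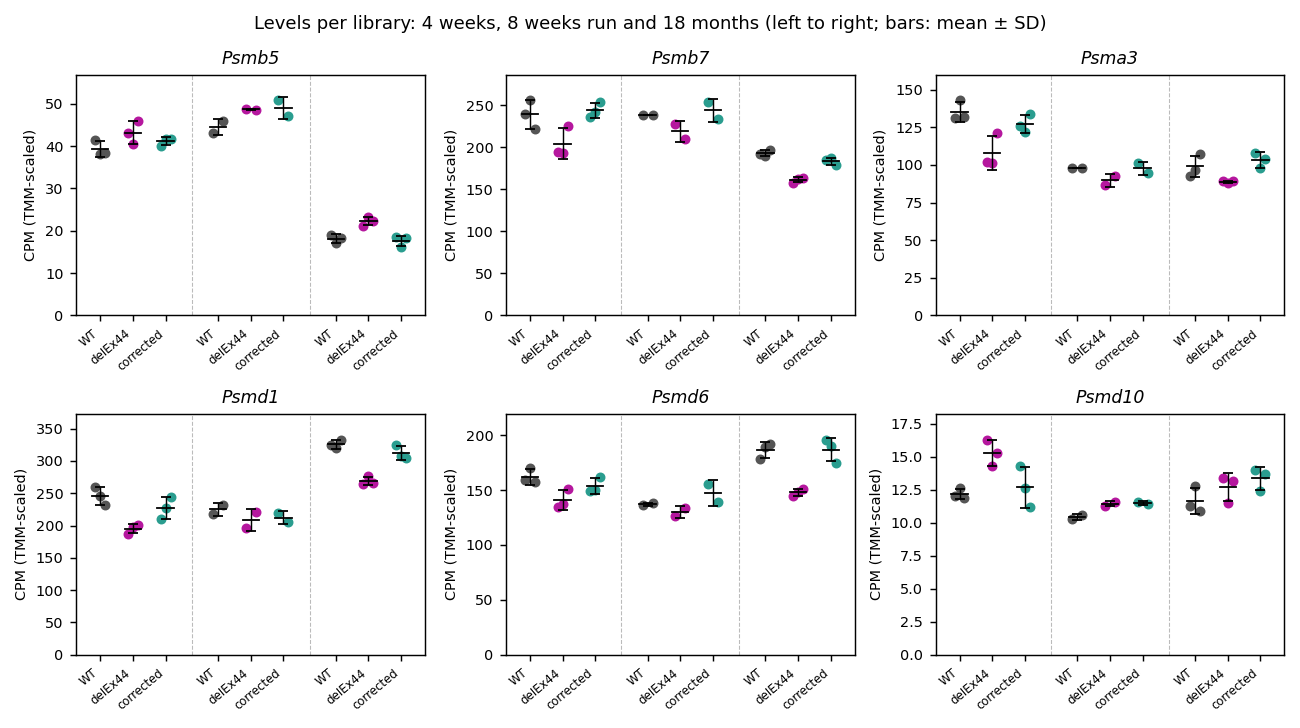
CPM (y axis, TMM-scaled, from 0) of 6 members in each library (points), with mean and SD (bars), for WT, delEx44 and corrected muscle at 4 weeks, 8 weeks after running and 18 months. In delEx44 Psmd1 lies below WT at 4 weeks and at 18 months, and Psmb5 is higher in delEx44 than in both other groups at 18 months (21.2 to 23.3 CPM against 16.1 to 19.1).

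Corrected muscle was compared with delEx44 muscle to ask how far these transcripts moved with the treatment. At 4 weeks 6 members rose and 3 fell with TMM, whereas total counts gave 0 higher and 30 lower, against 5.79% and 51.4% of all genes. With TMM 46.3% of all genes were called in either direction, 22.1% higher and 24.2% lower. The groups did not overlap for 10 members higher and 3 lower in corrected muscle, against 28.3% and 30.4% of all genes. Total counts moved the median of all genes from -0.01 to -0.33. The median log2 fold change was 0.12 over 19S genes and -0.03 over 20S genes with TMM, and -0.20 and -0.36 with total counts. The ATPases Psmc4 (0.21 ± 0.060, edgeR adjusted p = 0.012) and Psmc5 (0.19) rose, as did Psmb7 (0.26 ± 0.077, edgeR adjusted p = 0.016), Psma3 (0.24 ± 0.074, edgeR adjusted p = 0.018), Psmd1 (0.22) and Psmd7 (0.22). With total counts Psmc4 was -0.12, Psmb7 was -0.07 and Psma3 was -0.08. Those that fell were Psma5, an alpha-ring subunit (-0.25 ± 0.057, edgeR adjusted p = 0.0030), Psmd5 (-0.34 ± 0.095, edgeR adjusted p = 0.0094) and Psmd10 (-0.27 ± 0.086, edgeR adjusted p = 0.021). Psmd5 was at 27.9, 27.0 and 25.8 CPM in corrected muscle, below each delEx44 library, while 1 Psmd10 library reached the delEx44 range. The count of 9 became 2 without delEx44 library 1, 5 without corrected library 2 and 3 without corrected library 3. The shares of all genes were then 16.4%, 19.3% and 17.2% higher, and 19.3%, 21.2% and 19.4% lower. Psmc4, Psmb7, Psma3 and Psmd10 each lost their call in 1 or more of these omissions (edgeR adjusted p = 0.052 to 0.10).

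No member was called between corrected and WT muscle at 4 weeks, where no gene of 15013 was called (0%). No member had an unadjusted p under 0.05, and DESeq2 also called 0 members. Estimates for members lay between -0.11 and 0.06. The groups did not overlap for 0 members higher and 1 lower, against 8.11% and 7.33% of all genes.

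At 18 months the same comparison of delEx44 with WT gave 11 members lower and 1 higher with TMM, and 0 lower and 21 higher with total counts, against 9.07% and 52.1% of all genes. With TMM 52.7% of 14337 genes were called in either direction, 23.8% lower and 28.8% higher. The groups did not overlap for 16 members lower and 9 higher in delEx44, against 29.9% and 36.3% of all genes. The median of all genes was 0.05 with TMM, 0.00 with the DESeq2 size factors and 0.35 with total counts. The median over 19S genes was -0.15 with TMM and 0.16 with total counts, and that over 20S genes -0.01 and 0.30. The difference of 0.14 between the classes ranged from 0.09, without WT column WT-1, to 0.18, without delEx44 library 2. Summed mature fibre markers were at 131000 to 140000 CPM in WT, 57400 to 70200 in delEx44 and 116000 to 129000 in corrected muscle, and macrophage markers at 213 to 302, 867 to 991 and 240 to 919 CPM. In delEx44 relative to WT at that age 6 of 6 fibro-adipogenic progenitor, 8 of 8 regenerating fibre, 4 of 5 adipocyte and 3 of 4 tested T and B cell genes were higher. The part of these markers in the results was not tested.

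Of 20 19S genes 9 fell at 18 months and none rose with TMM, while 10 were higher and 0 lower with total counts. The 9 were 7 of 11 non-ATPase subunits, 1 of 6 ATPases (Psmc2) and the chaperone Psmd9. With total counts 3 non-ATPase subunits and 5 ATPases were higher. Psmd6, a lid subunit, was at 178, 189 and 192 CPM in WT, 145, 148 and 151 in delEx44, with 196, 190 and 175 in corrected muscle. The delEx44 libraries lay below both other groups (log2 fold change -0.33 ± 0.063, edgeR adjusted p = 0.0017). With total counts the Psmd6 estimate was -0.02. Psmd1 was at 324, 320 and 333 CPM in WT, 264, 276 and 266 in delEx44, with 324, 308 and 304 in corrected muscle. Again the delEx44 libraries lay apart (log2 fold change -0.28 ± 0.058, edgeR adjusted p = 0.0027), and total counts gave 0.03. Psmd7, the lid partner of the deubiquitinase Psmd14, fell by 0.26, Psmd8 by 0.30 and Psmd11 by 0.17 on the log2 scale. Psmd4 gave -0.15 ± 0.061 and was not called (edgeR adjusted p = 0.068).

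In the 20S core at 18 months the active-site genes again differed among themselves. Psmb5 was at 19.1, 17.0 and 18.2 CPM in WT, 21.2, 23.3 and 22.4 in delEx44, with 18.4, 16.1 and 18.2 in corrected muscle. Each delEx44 library lay above each library of both other groups. Psmb5 rose by 0.30 ± 0.081 (edgeR adjusted p = 0.011), the only member called higher with TMM, and by 0.61 with total counts. The TMM call was lost without WT column WT-2 (edgeR adjusted p = 0.052). Psmb7 was at 192, 190 and 197 CPM in WT and 158, 162 and 164 in delEx44 (log2 fold change -0.26 ± 0.054, edgeR adjusted p = 0.0027), and total counts gave 0.05. Psmb6 gave -0.13 ± 0.054 (edgeR adjusted p = 0.056). No alpha-ring gene was called.

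Across the ages, 9 members were called lower in delEx44 at both 4 weeks and 18 months with TMM, none of which was called lower at either age with total counts: Psmb2, Psmb7, Psmc2, Psmd1, Psmd2, Psmd6, Psmd7, Psmd11 and Psmd12. That is 9 of the 13 called at 4 weeks and of the 11 called at 18 months, and 17.2% of the 14139 genes tested in both tables met the same rule. None was called higher at both ages, against 17.3% of genes. Differences between ages were tested over the 18 sedentary libraries, where 10.9% of 14937 genes were called for delEx44 minus WT (7.02% higher, 3.91% lower). Only Psmc4, an ATPase, was called with TMM, and 5 members had an unadjusted p under 0.05. It was at 115, 110 and 108 CPM in WT and 92.7, 96.0 and 98.1 in delEx44 at 4 weeks, but at 85.0, 82.0 and 78.8 in WT and 87.4, 85.3 and 85.4 in delEx44 at 18 months. Its difference between genotypes was 0.27 ± 0.078 greater at 18 months on the log2 scale (edgeR adjusted p = 0.037), a call not kept with the DESeq2 size factors (0.24, edgeR adjusted p = 0.092) or with total counts (0.20, edgeR adjusted p = 0.098). For corrected minus delEx44, 15.9% of genes (7.75% higher, 8.12% lower) and no member were called by edgeR, with 5 members at an unadjusted p under 0.05. DESeq2 called 0 members there. Vector doses and the guide vector also differed between the corrected mice of these ages. That comparison therefore cannot tell age apart from dose, vector or count table.

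Corrected muscle at 18 months had 8 members higher and 1 lower than delEx44 with TMM, and 0 higher and 20 lower with total counts (6.48% and 43.2% of all genes), which moved the median of all genes from -0.03 to -0.30. With TMM 41% of all genes were called in either direction, 19.6% higher and 21.4% lower. The groups did not overlap for 12 members higher and 7 lower in corrected muscle, against 25.5% and 28.4% of all genes. Psmd6 rose by 0.33 ± 0.063 (edgeR adjusted p = 0.0022), Psmd7 by 0.23 ± 0.062 (edgeR adjusted p = 0.012) and Psmd1 by 0.22 ± 0.058 (edgeR adjusted p = 0.013), and Psma3, Psmb7, Psmc2, Psmd8 and Psmd11 also rose. With total counts Psmd7 was -0.04 and Psmd1 was -0.06. Psmb5 fell by 0.34 ± 0.081 (edgeR adjusted p = 0.0072). The median log2 fold change was 0.11 over 19S and -0.04 over 20S genes, and this comparison shares the delEx44 libraries with the one against WT. The count of 9 became 3 without delEx44 library 1 and 4 without delEx44 library 3. The shares of all genes were then 13.8% and 14.9% higher, and 14.9% and 16% lower. The macrophage sum reached 919 CPM in 1 corrected library, and its part in these values was not tested.

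Between corrected and WT muscle at 18 months no member was called by edgeR, against 4.76% of all genes, 2.34% higher and 2.43% lower. The groups did not overlap for 1 member higher and 5 lower, against 12% and 12.9% of all genes. The count at an unadjusted p under 0.05 was 1, Psmb2, at -0.23 ± 0.078 (edgeR adjusted p = 0.10). DESeq2 called 0 members. Without corrected library 2, edgeR called 1 member lower and 0 higher, against 8.32% and 11.3% of all genes.

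**Figure D4:**
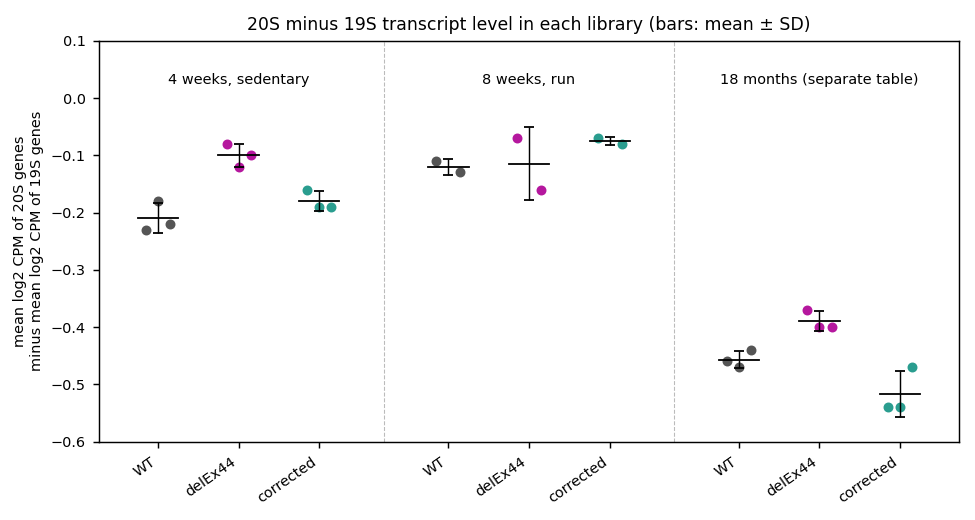
Mean log2 CPM of the 14 20S genes minus mean log2 CPM of the 20 19S genes (y axis) in each library (points), with mean and SD per group (bars). At 4 weeks and at 18 months the 3 delEx44 libraries lie above all WT and corrected libraries of that age. After running the WT and corrected libraries lie within the delEx44 range or at its end, and both corrected libraries lie above both WT libraries.

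The scaling factor of a library cancels from its balance of 20S to 19S transcripts, apart from a small prior count. Per library, the mean log2 CPM of 20S genes minus that of 19S genes was -0.23 to -0.18 in WT, -0.12 to -0.08 in delEx44 and -0.19 to -0.16 in corrected muscle at 4 weeks. At 18 months it was -0.47 to -0.44, -0.40 to -0.37 and -0.54 to -0.47. In each age the delEx44 libraries had the highest values, without overlap. After running the ranges were -0.13 to -0.11 in WT, -0.16 to -0.07 in delEx44 and -0.08 to -0.07 in corrected muscle, and those of WT and corrected muscle lay within the delEx44 range or at its end. The 18-month values lie lower in every genotype, but that table was counted separately, so age and table cannot be told apart. Much of that shift lay in the active-site genes: Psmb5 was at 39.4 ± 1.85 CPM (SD, n = 3) in WT at 4 weeks and 18.1 ± 1.02 at 18 months, and Psmb6 at 182 ± 6.63 and 92.5 ± 1.59. Psmb7 was at 239 ± 17.1 and 193 ± 3.50 CPM.

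After running at 8 weeks few members separated the genotypes. Only Psmb2, a structural beta subunit, was called in delEx44 relative to WT (1 lower, 0 higher), against 29.1% of all genes, 14.2% lower and 14.9% higher. With 2 libraries a group, 12 members lay wholly lower and 8 wholly higher in delEx44, against 32.6% and 31.1% of all genes. It was at 81.5 and 88.8 CPM in WT, 70.8 and 73.4 in delEx44, with 91.2 and 83.6 in corrected muscle. Both delEx44 libraries lay below the other 4. The log2 fold change was -0.24 ± 0.067 (edgeR adjusted p = 0.017), and that of corrected relative to delEx44 was 0.28 ± 0.067 (edgeR adjusted p = 0.011), where 23.2% of all genes were called, 10.8% higher and 12.4% lower. In that comparison 18 members lay wholly higher and 3 wholly lower, against 30.7% and 31% of all genes. With total counts 4 members were higher and 0 lower in delEx44 (19.5% and 7.06% of all genes), while the median of all genes went from -0.01 to 0.12. The first Psmb2 call was lost without WT library 2 or delEx44 library 1 (edgeR adjusted p = 0.092 to 0.16) and the second without delEx44 library 1 or corrected library 1 (edgeR adjusted p = 0.058 to 0.12). Both were also lost when the groups compared were fitted alone (edgeR adjusted p = 0.11 to 0.15). The median log2 fold change in delEx44 was -0.07 over 19S and -0.02 over 20S genes, and the sign of that difference (0.06) turned to -0.02 without delEx44 library 1. Corrected and WT muscle did not differ in any member by edgeR (0.02% of all genes called, 0.00666% higher and 0.0133% lower), with 0 members at an unadjusted p under 0.05 and 0 called by DESeq2. There 13 members lay wholly higher in corrected muscle and 0 wholly lower, against 19% and 20.5% of all genes. Mature fibre markers were at 170000 to 176000 CPM in WT and 137000 to 149000 in delEx44, and macrophage markers at 267 to 276 and 1140 to 1270.

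Run libraries at 8 weeks were set against sedentary ones at 4 weeks within each genotype, a comparison in which age and running differ together. In WT 4 members were called higher and 7 lower, against 13.4% and 14.2% of all genes (27.6% in either direction). In delEx44 2 were higher and 6 lower, against 16.4% and 19.3% (35.7%), and in corrected muscle 6 and 2, against 12.3% and 13.5% (25.8%). The run and sedentary groups did not overlap for 5 members higher and 12 lower in WT (26% and 27% of all genes), for 5 and 8 in delEx44 (26.1% and 32.7%) and for 10 and 7 in corrected muscle (27.8% and 28.3%). Total counts gave 7 higher and 2 lower in WT (20.2% and 8.03% of all genes), 2 and 17 in delEx44 (9.19% and 31.1%) and 9 and 2 in corrected muscle (15.4% and 9.26%), with the median of all genes going from -0.04 to -0.20 in delEx44. In WT the count of 11 became 6 to 7 without any 1 sedentary library (9.75% to 11.8% of all genes higher, 10.4% to 12.9% lower). It became 4 without either run library (7.13% to 8.13% and 7.38% to 8.16%). In delEx44 the count of 8 became 4 without run library 1 (10.7% and 9.69%), and in corrected muscle 3 without run library 1 (4.64% and 4.02%). Markers of other cells moved in these comparisons too. Of 6 fibro-adipogenic progenitor genes 5, 4 and 6 were lower in WT, delEx44 and corrected muscle, and of 8 regenerating fibre genes 6, 8 and 2. Of 10 macrophage genes 0, 9 and 5 were lower, and of 7 neutrophil genes 0, 4 and 2 were higher. All 7 neutrophil estimates were positive in WT too, where the sedentary sums spanned 0.315 to 238 CPM. After running the neutrophil sums were 129 to 188 CPM in WT, 59 to 200 in delEx44 and 76.1 to 162 in corrected muscle. The part of these markers in the members' values was not tested.

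A pair of members was called higher in all 3 genotypes: Psmd3, a lid subunit, and Psmb4, a structural beta subunit. Of all genes 5.85% met that rule, and 2 of 34 members lie near that share. Psmd3 went from 107, 105 and 102 CPM to 140 and 148 in WT, from 101, 96.4 and 102 to 132 and 137 in delEx44, and from 106, 107 and 111 to 149 and 141 in corrected muscle. No run library overlapped a sedentary one. Its log2 fold changes were 0.46 ± 0.058 for WT, 0.43 ± 0.058 for delEx44 and 0.43 ± 0.058 for corrected muscle (edgeR adjusted p = 0.00017, 0.00019 and 0.00039). Psmb4 went from 105, 103 and 95.3 CPM to 128 and 138 in WT, from 103, 100 and 111 to 131 and 129 in delEx44, and from 100, 102 and 109 to 150 and 134 in corrected muscle. Again the groups did not overlap (log2 fold change 0.39, 0.31 and 0.46). Both genes met the rule under each scaling, with DESeq2, without the low-count filter, with the groups fitted alone and with any 1 library left out.

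**Figure D5:**
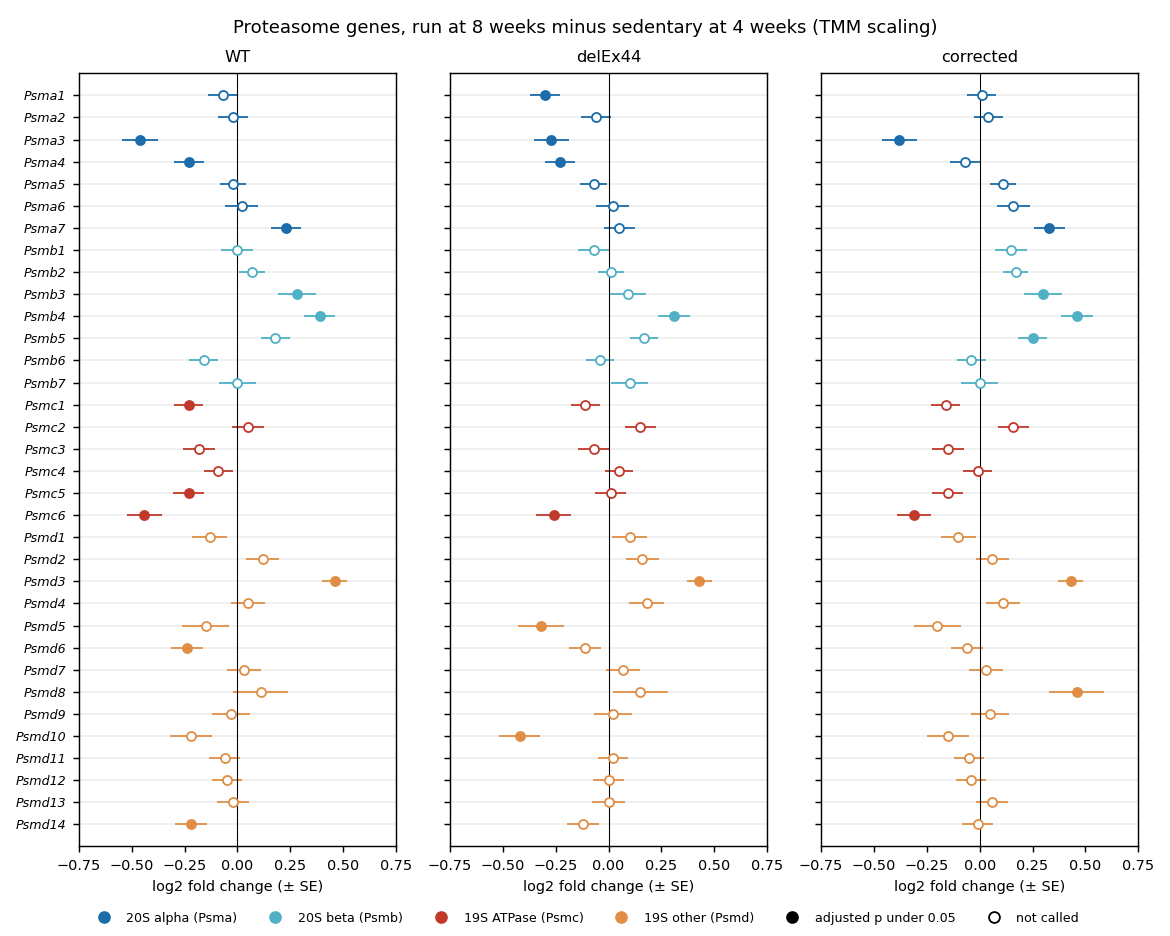
Log2 fold change (run at 8 weeks minus sedentary at 4 weeks, TMM scaling) of the 34 tested members in WT, delEx44 and corrected muscle, with standard error bars, coloured by class; filled points passed the adjusted threshold of 0.05. Psmb4 and Psmd3 are filled to the right of 0 and Psma3 and Psmc6 to the left in all 3 panels.

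Psma3 and the ATPase Psmc6 were called lower in all 3 genotypes, 2 of 34 members, which is near the 6.41% of all genes. Psma3 went from 131, 143 and 132 CPM to 98.2 and 98.2 in WT, from 102, 101 and 121 to 86.5 and 92.9 in delEx44, and from 126, 122 and 134 to 101 and 94.8 in corrected muscle (log2 fold change -0.46, -0.27 and -0.38). Psmc6 went from 182, 202 and 174 CPM to 135 and 139 in WT, with log2 fold changes of -0.44, -0.26 and -0.31 in WT, delEx44 and corrected muscle. Neither gene kept calls in all 3 genotypes when groups were fitted alone, or without sedentary delEx44 library 3, run delEx44 library 1 or run corrected library 3. Psmc6 also lost its place without run delEx44 library 2 or run corrected library 1. Others were called in fewer genotypes: Psma7 rose in WT (0.23 ± 0.073, edgeR adjusted p = 0.031) and corrected muscle (0.33 ± 0.073, edgeR adjusted p = 0.0055), each call being lost without run library 1 (edgeR adjusted p = 0.077 and 0.097). Psmb5 rose in corrected muscle (0.25 ± 0.067, edgeR adjusted p = 0.014). In delEx44 Psmd10 fell by 0.42 ± 0.098 (edgeR adjusted p = 0.0052) and Psma1, an alpha-ring subunit, by 0.30 ± 0.070 (edgeR adjusted p = 0.0056). Psma4, also of the alpha ring, fell in WT and delEx44 (-0.23 in each), and each of these calls was lost when the groups were fitted alone (edgeR adjusted p = 0.053 and 0.13).

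The differences in this response between genotypes gave no call among members by edgeR. For delEx44 against WT 0.879% of all genes were called (0.586% higher, 0.293% lower), and 2 members, Psma1 and Psmc5, had an unadjusted p under 0.05. DESeq2 called 0 members, and total counts gave 7 lower (8.29% of all genes). For corrected against delEx44 1.42% of all genes were called (0.406% higher, 1.01% lower), and 2 members, Psma1 and Psma7, had an unadjusted p under 0.05. Here DESeq2 called 1 member higher and total counts 8 (5.39% of all genes). Of 10 mature fibre markers 7 were higher after running in delEx44, 0 in WT and 0 in corrected muscle. In the test of the difference in response, 1 of 10 was called higher for delEx44 against WT. For corrected against delEx44 0 of 10 were called. The part of these markers was not tested.

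The other genes of the pathway were taken from lists of immunoproteasome, activator, cap-bound, assembly, regulator and ubiquitin genes. The immunoproteasome genes, whose products replace the active-site subunits in immune and interferon-exposed cells, rose in delEx44 at 4 weeks, 3 of 3 with TMM and with total counts: Psmb8 by 1.47 ± 0.20, Psmb9 by 1.52 ± 0.27 and Psmb10 by 0.80 ± 0.097 (edgeR adjusted p = 9.3e-05, 5e-04 and 2.4e-05). Psme1 and Psme2, subunits of the 11S activator, rose by 0.25 and 0.50 (0.65 and 0.90 with total counts). The macrophage markers given above were higher in the same libraries, 10 of 10 called higher, and their part in these values was not tested. At 18 months none of the 3 immunoproteasome genes was called by edgeR, with estimates of 1.34, 1.14 and 0.57 (edgeR adjusted p = 0.057, 0.085 and 0.079), of which 2 had an unadjusted p under 0.05. With total counts all 3 were called higher at that age.

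Psme4, which encodes another activator cap of the core, fell in delEx44 at all 3 ages: by 0.81 ± 0.098 at 4 weeks, 0.44 ± 0.12 after running and 0.65 ± 0.086 at 18 months (edgeR adjusted p = 2.5e-05, 0.015 and 0.00021). It was also lower with total counts at each age (-0.41, -0.31 and -0.34). It rose in corrected relative to delEx44 muscle by 0.70, 0.35 and 0.64 (0.37, 0.24 and 0.37 with total counts, the value after running not being called). Of 9 other 19S components and proteasome-bound factors, 4 fell and none rose at 4 weeks, and 6 fell and none rose at 18 months. With total counts 5 were higher and 1 lower at 4 weeks, and 1 higher and 1 lower at 18 months. AI314180 (Ecpas), a proteasome adaptor, fell by 0.67 and 0.63 (by 0.28 and 0.32 with total counts) at 4 weeks and 18 months. Adrm1, a ubiquitin receptor of the cap, fell after running (0.23) and at 18 months (0.20) with TMM, though total counts gave -0.10 and 0.10 with no call, and Usp14, a cap-bound deubiquitinase, gave -0.13 at 4 weeks and was not called. Of 5 assembly chaperones of the core, 1 rose at 4 weeks, Psmg4 (0.50 ± 0.12, edgeR adjusted p = 0.0031), against 5 with total counts, and Pomp gave 0.13 and was not called.

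Of 5 regulators of proteasome genes 4 fell and none rose at 4 weeks, and 3 fell and 2 rose at 18 months. With total counts 1 was higher and 0 lower at 4 weeks, and 2 higher and 1 lower at 18 months. Nfe2l1, the transcription factor that raises proteasome genes when proteasome activity is short, fell by 0.49 ± 0.095 at 4 weeks (edgeR adjusted p = 0.00093) and rose by 0.23 ± 0.082 at 18 months (edgeR adjusted p = 0.034). With total counts Nfe2l1 was at -0.09 at 4 weeks, with no call, and 0.54 at 18 months. Ddi2, the protease that cleaves it, fell by 0.71 and 0.82, and with total counts gave -0.31, with no call, and -0.52. Ngly1, the glycanase that processes it, fell by 0.39 and 0.40 (0.01 and -0.10 with total counts, neither called). Vcp, which extracts it from the membrane, fell by 0.26 and 0.40 (0.14 and -0.09 with total counts, neither called). Psmg4, Ddi2 and Vcp were chosen after their values were seen. Of 6 ubiquitin and E1 genes 1 rose at 4 weeks, and 1 rose and 1 fell at 18 months. With total counts 4 of these were higher at 4 weeks, and 5 higher and 1 lower at 18 months. Values of these other genes are on the TMM scale unless total counts are named.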

How the data were processed

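Polyadenylated RNA of mouse quadriceps was sequenced by the authors (TruSeq RNA kit, per the labels' protocols). The authors deposited unnormalized gene counts as 2 tables, covering 15 young libraries and 9 libraries at 18 months. HTSeq, STAR 2.7.2b, Bowtie2 2.3.4.3, Trim Galore, SAMtools 1.9, edgeR and the mm10 build are named, per the submitters' processing notes. The sources used here do not state the annotation, the strand setting or the aligner behind the counts, so overlapping or antisense genes and near-identical copies cannot be separated. Records that name no gene (27.4% to 34.2% of the young and 42.2% to 48.3% of the 18-month libraries) were left out. All columns were mapped to groups by name. The 18-month WT columns WT-1 and WT-2 were mapped to their group only, because those names also stand in labels of run WT samples. Nothing in the labels says outright that each library is 1 animal, so p-values measure the spread between libraries.

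Counts were analysed with edgeR 4.0.16 (limma 3.58.1, R 4.3.3): filterByExpr (minimum count 10), TMM scaling, robust quasi-likelihood fits with 1 mean per group, and Benjamini-Hochberg adjustment over all genes at 0.05. Fits covered the 15 young libraries (15013 genes), the 9 at 18 months (14337) and the 18 sedentary libraries (14937, differences between ages only). In all, 16 contrasts were tested. Fits were tested on simulated data. Replicate libraries differed by more than sampling noise. Log2 CPM uses a prior count of 2. Lengths are those of the APPRIS principal transcript of GENCODE vM21 (GRCm38) and promoters are RefSeq, GRCm38.p6.

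Members may all be named. Full statistics are given for the 3 smallest p-values per direction in each contrast and for Psmb5, Psmb6, Psmb7, Psmd4 and Psmd11. Among other proteasome genes 10 were fixed by name and others are named as having the 2 smallest p-values per direction in a contrast, apart from 3 named after their values were seen. The members and lists were chosen with earlier results of these data known. Alternatives were DESeq2 1.42.0, its size factors or total counts in edgeR, no low-count filter, the groups of a comparison alone, each library left out and a replicate block. Marker lists for mature and regenerating fibres, macrophages, neutrophils, red cells, fibro-adipogenic progenitors, endothelium, adipocytes and T and B cells were summed.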

Additional observations from a re-analysis of the deposited data

Results flagged for a closer look

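The difference between delEx44 and WT in Psmc4, an ATPase of the 19S cap, itself differed between the ages. It was 0.27 ± 0.078 (SE, log2 scale) greater at 18 months than at 4 weeks (edgeR adjusted p = 0.037). The delEx44 estimate was -0.22 at 4 weeks (below WT in 3 of 3 libraries) and 0.07 at 18 months (above WT in 3 of 3 libraries, edgeR adjusted p = 0.37). Over the leave-one-out fits the value ranged from 0.24 to 0.29. The call was kept with DESeq2 (0.24, adjusted p = 0.044) and lost without any 1 of 10 of the 12 libraries involved (edgeR adjusted p = 0.053 to 0.093). The ages were counted in separate tables, so age and table cannot be told apart.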

How the results depend on the processing

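The scaling of the libraries was the choice that changed most. With total counts the members called numbered 32 at 4 weeks, 4 after running and 21 at 18 months in delEx44 relative to WT, and 30, 2 and 20 in corrected relative to delEx44 muscle. They numbered 19 for running in delEx44, 7 and 8 for the differences in running response and 1 for the age difference of corrected minus delEx44. Total counts turned the sign of some estimates, several to values near 0. In delEx44 relative to WT these were Psmd1 (0.07), Psma3 (0.07) and Psmc5 (0.16) at 4 weeks, and Psmb7 (0.05) and Psmd1 (0.03) at 18 months. In corrected relative to delEx44 muscle they were Psmc4 (-0.12), Psmb7 (-0.07) and Psma3 (-0.08) at 4 weeks, and Psmd7 (-0.04) and Psmd1 (-0.06) at 18 months. That follows from the construction of the scale, on which the median of all genes moved by up to 0.39. Fitting the groups of a comparison alone gave 0 and 0 calls in delEx44 relative to WT and corrected relative to delEx44 muscle after running, 7 and 3 for running in WT and delEx44, and 2 for the age difference of corrected minus delEx44, where omitting the low-count filter gave 1. DESeq2 gave 3 calls in corrected relative to delEx44 muscle after running, 1 for the running response of corrected against delEx44 and 2 for the age difference of delEx44 minus WT. For the DESeq2, groups-alone and filter values the cause was not tested. The difference between the 20S and 19S medians moved by less than the replicate spread in all of these settings.

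Leaving out 1 library gave 5 to 15 calls (delEx44 relative to WT), 2 to 11 (corrected relative to delEx44) and 0 to 0 (corrected relative to WT) at 4 weeks. After running these were 0 to 1, 0 to 2 and 0 to 0, and at 18 months 9 to 14, 3 to 13 and 0 to 1. For running they were 4 to 7 in WT, 4 to 8 in delEx44 and 3 to 8 in corrected muscle, for the running responses 0 to 0, and for the age differences 0 to 1 in both. The difference of medians ranged, in the same order, over 0.17 to 0.21, -0.17 to -0.14 and -0.01 to 0.04 at 4 weeks, -0.02 to 0.11, -0.02 to 0.06 and 0.03 to 0.08 after running, and 0.09 to 0.18, -0.17 to -0.14 and -0.09 to -0.02 at 18 months. For running it ranged over 0.05 to 0.11, -0.06 to -0.01 and 0.14 to 0.16, for the running responses over -0.18 to -0.08 and 0.14 to 0.20, and for the age differences over -0.05 to 0.00 and -0.04 to 0.01.

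At 18 months the column names of all 3 groups end in the numbers 1 to 3. Over 14337 genes the deviations of same-numbered libraries correlated at 0.05, 0.07 and 0.04 for delEx44 with WT, -0.03, 0.03 and -0.05 for corrected with delEx44, and 0.09, 0.04 and -0.14 for corrected with WT, so the libraries share only a number. The replicate block was fitted on the 2 groups compared. With it 1 member was higher and 14 lower in delEx44 relative to WT, against 1 and 15 in those groups without it. Of all genes 30.9% and 28.2% were called with it, against 31.6% and 29.1%. In corrected relative to delEx44 muscle 1 member was higher and 1 lower, against 7 and 2 without it. Of all genes 14.9% and 16.1% were called with it, against 18.5% and 19.3%. In corrected relative to WT 0 members were called with or without it. Of all genes 0% were called with it, against 0.0727% higher and 0.0436% lower without it. The fit of all 18-month libraries, without the block, called 1 and 11, 8 and 1, and 0 and 0 members. No paired analysis was possible because the young groups compared share fewer than 2 numbers. Each group holds 2 or 3 libraries, which limits the calls of small differences.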
